A study of Mus musculus with 16 samples.

Results

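The genes that make, package, take up and degrade the inhibitory transmitter GABA, together with the pair of cotransporters that set neuronal chloride, were examined in the cortex of 7 day old mouse pups. They comprised 7 genes chosen by name, Gad1, Gad2, Slc32a1, Slc6a11, Abat, Slc12a2 and Slc12a5, out of 36930 entries of the deposited table. The filter on low values kept 21183 entries, all 7 members among them. The expression ratio of Slc12a5 to Slc12a2 was computed for each pup as well. None of the 7 genes and not the ratio differed between genotypes beyond the spread between pups.

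The samples were 16 cortices of C57BL6 pups, 8 ChR2-flfl (4 female, 4 male by the labels) and 8 Avil-ChR2 (5 female, 3 male). Both genotypes carried the floxed channelrhodopsin-2/tdTomato construct of the Ai27D line in the Rosa26 locus, and the Avil-ChR2 pups in addition carried Cre recombinase driven by the advillin promoter, which is active mainly in peripheral sensory neurons. ChR2-flfl pups lacked Cre and served as controls. Every pup was exposed to blue light for 1 h a day from postnatal day 1 to 5 and the cortex was taken on day 7. The light itself was thus shared by both genotypes. Carrying the Cre transgene and being stimulated cannot be told apart. Recombination follows the whole expression domain of the driver, no source used here names a pup's litter, and each value is a whole cortex, in which fewer cells of a type and less RNA per cell cannot be told apart. The pup numbers formed a run from 26 to 33 and a run from 35 to 42, each with 4 pups of each genotype. Recovered depth was 30549132 reads in ChR2-flfl replicate 3 and 47791590 to 48711147 reads in the other pups. Avil itself, the gene whose promoter drives Cre, was at 0.825 to 1.46 CPM (read counts scaled to a library of fixed size) in ChR2-flfl pups and at 37.3 to 46.4 CPM in Avil-ChR2 pups, without overlap (log2 difference 5.23, adjusted p = 4.17e-19 in limma). Avil RNA was thus higher in the measured tissue itself. Expression of channelrhodopsin-2 in the cortex was not examined, so effects of the transgene there cannot be told apart from stimulation of sensory neurons.

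GABA is made from glutamate by glutamate decarboxylase, of which GABAergic neurons hold the forms GAD67 (Gad1) and GAD65 (Gad2). It is loaded into synaptic vesicles by the carrier VGAT (Slc32a1), is removed from the extracellular space by plasma membrane transporters such as the astrocytic GAT-3 (Slc6a11), and is broken down by GABA transaminase (Abat). Whether GABA excites or inhibits a neuron depends on the chloride concentration inside it, which is raised by the importer NKCC1 (Slc12a2) and lowered by the exporter KCC2 (Slc12a5); in rodent cortex the exporter comes to dominate during the early postnatal weeks.

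Levels between genes were compared as CPM divided by the length in kilobases of the union of a gene's annotated exons. On this scale the uptake carrier Slc6a11 stood highest at 63.7 ± 2.12 CPM per kb (SD, n = 16 pups of both genotypes), followed by the chloride exporter Slc12a5 at 42.0 ± 2.36 and the degrading enzyme Abat at 20.98 ± 1.26 CPM per kb. The genes that mark GABAergic neurons formed a middle group, with Gad1 at 13.2 ± 0.532, Slc32a1 at 12.6 ± 1.97 and Gad2 at 11.6 ± 0.648 CPM per kb, and the chloride importer Slc12a2 was lowest at 4.64 ± 0.208 CPM per kb. Within that middle group the order was not resolved, since Gad1 exceeded Slc32a1 in 12 of 16 pups and Slc32a1 exceeded Gad2 in 10 of 16. All other neighbours in the order were separated in every pup without overlap of their values. When the longest transcript was used as the length, the order was the same, but Gad1 then stood at 27.9 CPM per kb, clear of Slc32a1 at 12.6, and its values overlapped those of Abat. The length chosen therefore decided whether Gad1 and Slc32a1 were set apart, and the count of reads from introns is not known from the table.

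**Figure D1:**
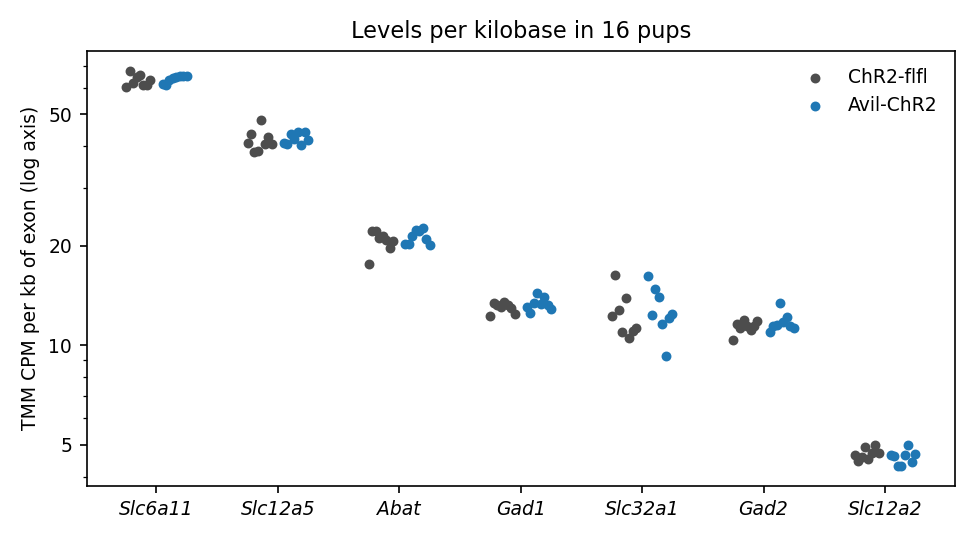
Level of each member in CPM per kilobase of exon (log axis) for the 8 ChR2-flfl pups (grey) and the 8 Avil-ChR2 pups (blue), ordered by the mean over 16 pups. Slc6a11 (63.7 on average) and Slc12a2 (4.64) are the ends of the order, and the values of Gad1, Slc32a1 and Gad2 overlap.

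The members differed widely in how much they varied between pups of 1 genotype. Slc32a1 had a coefficient of variation of 16.1% within genotypes, although counting error alone amounted to 2.49% at its depth of 1109 to 2209 reads per pup. Among 2698 genes within 0.5 log2 units of its level, 98.4% had a smaller within-genotype SD than Slc32a1. At the other end, Slc6a11 varied by 3.43%, and 25.8% of the 562 genes of like level had a smaller SD. The remaining members lay between, at 3.97% for Gad1, 4.45% for Slc12a2, 5.51% for Gad2, 5.8% for Slc12a5 and 6.13% for Abat. For Gad1 and Gad2, which mark the same neurons as Slc32a1, 35.8% and 61.6% of the genes of like level had a smaller SD.

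The sequences just before the starts of the most and the least variable member are given for orientation, since both genes lie in GC-rich surroundings and yet behaved differently across pups. They are the 250 bases before the RefSeq start on build GRCm38.p6, plus strand, 5′ to 3′, at chr2:158610508-158610757 for Slc32a1 and at chr6:114130991-114131240 for Slc6a11. Capitals mark GGGCGG on either strand.
Slc32a1: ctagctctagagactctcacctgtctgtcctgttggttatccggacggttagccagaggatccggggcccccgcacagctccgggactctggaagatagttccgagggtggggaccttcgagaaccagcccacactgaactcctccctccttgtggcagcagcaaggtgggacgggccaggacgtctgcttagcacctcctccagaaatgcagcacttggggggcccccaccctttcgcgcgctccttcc
Slc6a11: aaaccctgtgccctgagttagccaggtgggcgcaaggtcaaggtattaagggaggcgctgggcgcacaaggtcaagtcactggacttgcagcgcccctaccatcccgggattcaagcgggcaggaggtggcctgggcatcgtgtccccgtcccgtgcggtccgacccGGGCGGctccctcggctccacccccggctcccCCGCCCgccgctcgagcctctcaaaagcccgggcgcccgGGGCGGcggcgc
The Slc32a1 window had a GC content of 62.4% with 12 CG dinucleotides and the Slc6a11 window 71.2% with 25, against medians of 52.4% and 6 over all 32851 promoter windows of this length. Searched on both strands, GGGCGG was found at 3 places before Slc6a11 and at none before Slc32a1, and is held by 32.7% of all windows. TATAAA (12.4% of all windows), CCAAT (33.8%) and TAATTA (4.84%) were in neither window. RefSeq windows were matched for 5 of the 7 members and not for Abat and Slc12a2; those of Gad1, Gad2 and Slc12a5 overlap annotated exons of these genes and are not shown.

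Positions given with the members are those of the whole gene in the deposited table (GRCm38, plus strand). Of the enzymes of synthesis, Gad1 (chr2:70561763-70602014) ranged from 93.9 to 103.0 CPM with a median of 100.2 in ChR2-flfl pups, and from 95.6 to 109.6 CPM with a median of 101.1 in Avil-ChR2 pups. Of the 8 Avil-ChR2 pups, 6 lay inside the control range and replicate 4 was the highest pup. The log2 difference, Avil-ChR2 minus ChR2-flfl, was 0.03 (SE 0.0298, 95% interval -0.0281 to 0.0962), which spans a change of -1.93% to 6.9% (adjusted p = 0.954 in limma over all genes). The antisense gene Gad1os overlaps Gad1, and whether the counting used strand is not given in the sources used here, so reads of the pair cannot be told apart.

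Gad2 (chr2:22621423-22693877) ranged from 61.1 to 70.1 CPM with a median of 67.1 in ChR2-flfl pups and from 64.3 to 78.9 CPM with a median of 67.4 in Avil-ChR2 pups. The medians were nearly equal, and the higher Avil-ChR2 mean rested in part on replicate 4, the pup that was also highest for Gad1. The log2 difference was 0.04 (SE 0.0376, 95% interval -0.034 to 0.123, adjusted p = 0.953 in limma). In exact two-sided permutation tests of the single genes, unadjusted, p was 0.259 for Gad1 and 0.296 for Gad2.

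The vesicular carrier Slc32a1 (chr2:158610758-158615747) was at 29.3 to 45.5 CPM with a median of 32.9 in ChR2-flfl pups and at 25.9 to 45.2 CPM with a median of 34.6 in Avil-ChR2 pups. Its lowest and highest pups differed 1.76-fold, and 7 of 8 Avil-ChR2 pups fell inside the control range. The log2 difference of 0.05 (SE 0.0989) therefore had the widest interval of the members, from -0.157 to 0.256 (adjusted p = 0.986 in limma). That interval spans -10.3% to 19.4%, and a change within those bounds was not excluded. By run of pup numbers it was 0.14 (26 to 33) and -0.04 (35 to 42). The antisense transcript Gm14205 overlaps Slc32a1 and has the same limit as Gad1os.

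Slc32a1 also differed between the runs of pup numbers irrespective of genotype, at 38.3 ± 5.41 CPM in pups 26 to 33 and 32.2 ± 3.82 CPM in pups 35 to 42 (SD, n = 8 each). The log2 difference, later minus earlier, was -0.25 (SE 0.0831, unadjusted p = 0.00782 and adjusted p = 0.215 in limma with genotype in the fit). It was the only member with an unadjusted p under 0.05 in this comparison, in which 12.5% of all genes had one, so 1 of 7 members is near the background. Over all genes, 26 had an adjusted p under 0.05 for the run in limma, beside 2 for genotype in the main fit. The main fit held no term for the run. With the run as a covariate the genotype difference of Slc32a1 was 0.0494 (adjusted p = 0.969 in limma). The labels give the runs only as pup numbers, and nothing further about them was used.

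Slc6a11 (chr6:114131241-114249886), the uptake carrier, had the tightest values. It ranged from 305 to 343 CPM with a median of 318 in ChR2-flfl pups and from 310 to 331 CPM with a median of 326 in Avil-ChR2 pups, and all 8 Avil-ChR2 pups lay inside the control range. The log2 difference was 0.01 (SE 0.0267, 95% interval -0.0436 to 0.0678), or -2.98% to 4.82% (adjusted p = 0.986 in limma, unadjusted exact permutation p = 0.625).

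Abat (chr16:8513429-8621568), the enzyme of breakdown, ranged from 136.4 to 172.3 CPM with a median of 162.4 in ChR2-flfl pups and from 156.2 to 175.0 CPM with a median of 164.2 in Avil-ChR2 pups. The lowest value belonged to ChR2-flfl replicate 1, which was also the lowest control pup for Gad1, Gad2 and Slc6a11. The log2 difference was 0.04 (SE 0.0419, 95% interval -0.0493 to 0.126, adjusted p = 0.967 in limma). By the sexes of the study's second supplementary file, Abat averaged 167.3 ± 5.73 CPM in female and 153.8 ± 12.9 CPM in male ChR2-flfl pups, and 162.4 ± 7.29 and 166.8 ± 8.45 CPM in female and male Avil-ChR2 pups (SD, n = 4 each). The interaction of genotype and sex was 0.16 on the log2 scale (unadjusted p = 0.0478, adjusted p = 0.799 in limma), and 6.23% of all genes had an unadjusted p under 0.05 in that test. With the sexes of the sample labels, which differ for 1 pup, none of the members reached an unadjusted p under 0.05, the lowest being 0.122.

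Of the chloride cotransporters, the importer Slc12a2 was at 48.8 to 54.6 CPM with a median of 51.0 in ChR2-flfl pups and at 47.0 to 54.3 CPM with a median of 50.6 in Avil-ChR2 pups. It was the only member with a lower mean in Avil-ChR2 pups, 49.98 ± 2.44 against 51.3 ± 2.04 CPM (SD, n = 8 each), and 7 of 8 Avil-ChR2 pups lay below the control mean while 5 lay inside the control range. The log2 difference was -0.04 (SE 0.0331, 95% interval -0.106 to 0.032, adjusted p = 0.954 in limma, unadjusted exact permutation p = 0.262).

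The exporter Slc12a5 (chr2:164960818-164999731) ranged from 287 to 357 CPM with a median of 304 in ChR2-flfl pups and from 300.15 to 330 CPM with a median of 313 in Avil-ChR2 pups. The highest pup was ChR2-flfl replicate 5, and every Avil-ChR2 pup lay inside the control range. The log2 difference was 0.02 (SE 0.0383, 95% interval -0.0596 to 0.1, adjusted p = 0.986 in limma, unadjusted exact permutation p = 0.637).

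**Figure D2:**
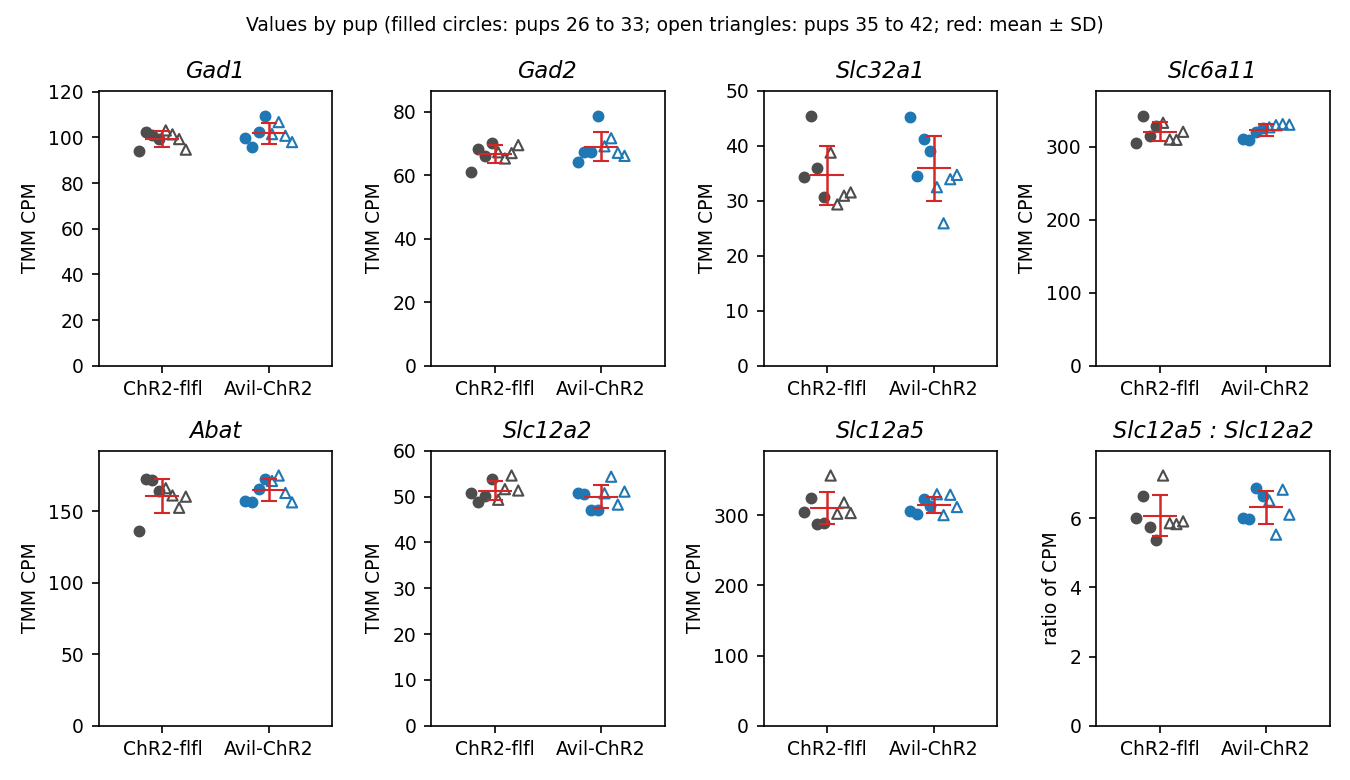
Value of each member (TMM-normalised CPM, axis from 0) and of the Slc12a5 to Slc12a2 ratio in each of 8 ChR2-flfl (grey) and 8 Avil-ChR2 (blue) pups. Filled circles are pups 26 to 33, open triangles pups 35 to 42, and red marks the mean ± SD. The genotypes overlap in every panel, and Slc32a1, from 25.9 to 45.5 CPM, is the most scattered.

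In count, 0 of 7 members had an adjusted p under 0.05, 0 of 7 an unadjusted one, and 0 of 7 had values that did not overlap between genotypes. Over all 21183 genes these shares were 0.00944% (2 genes), 5.41% (1145 genes) and 0.0283% (6 genes). The mean was higher in Avil-ChR2 pups for 6 members and lower for 1, with a median log2 difference of 0.03 against 0.002 over all genes. The median absolute log2 difference of the members was 0.04, against 0.05 over all genes and 0.03 over the 11002 genes whose log2 values averaged 3 or more. Leaving out Slc32a1, every interval lay within -7.09% and 9.11%.

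**Figure D3:**
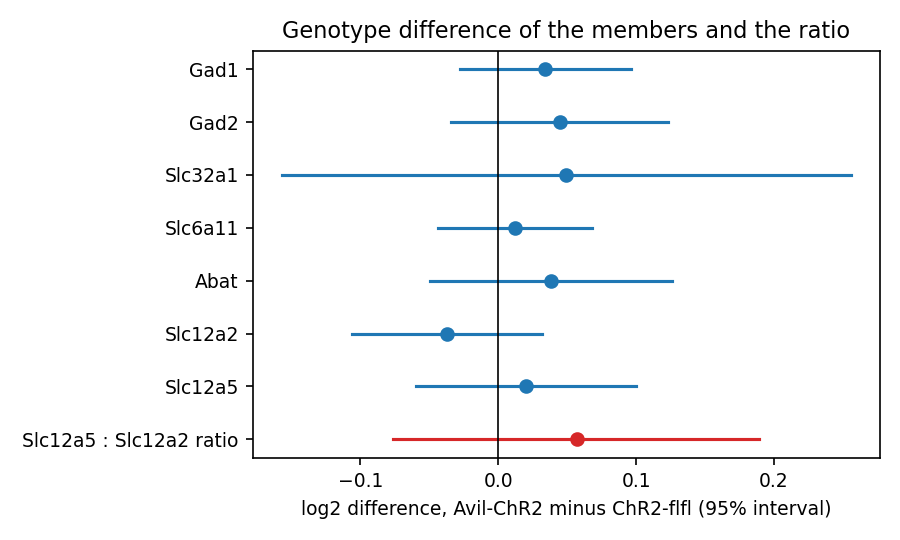
Log2 difference, Avil-ChR2 minus ChR2-flfl, of the 7 members (blue, limma 95% intervals) and of the Slc12a5 to Slc12a2 ratio (red, interval from the exact permutation test), n = 8 pups per genotype. Every interval includes 0, and that of Slc32a1 is the widest, from -0.157 to 0.256.

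The ratio of Slc12a5 to Slc12a2 in a pup does not depend on the scaling of its library. It ranged from 5.37 to 7.23 with a median of 5.88 in ChR2-flfl pups and from 5.53 to 6.88 with a median of 6.31 in Avil-ChR2 pups. Every Avil-ChR2 pup lay inside the control range, and the highest ratio was that of ChR2-flfl replicate 5, which had the highest Slc12a5. The means were 6.07 ± 0.589 and 6.31 ± 0.479 (SD, n = 8 each), a 1.04-fold difference with a 95% interval from 0.949-fold to 1.14-fold (exact two-sided permutation test, p = 0.363). Within the runs the log2 difference was 0.11 in pups 26 to 33 (exact permutation p = 0.229) and 0.01 in pups 35 to 42 (exact permutation p = 1.0), where 4 against 4 pups cannot go below 0.0286. Per kilobase of the exon union the exporter exceeded the importer 9.08-fold on average over 16 pups, from 7.87-fold to 10.6-fold. With the longest transcript as the length, the means were 51.85 CPM per kb for Slc12a5 and 7.76 for Slc12a2. The exporter was higher on both lengths, but the size of the fold depends on the length chosen and is smaller with the longest transcript. The ratio was 6.19 ± 0.506 in 9 female and 6.19 ± 0.607 in 7 male pups by the sample labels.

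Pup-to-pup variation was then compared between members, taking log2 values as deviations from the genotype mean in 16 pups. Of 21 pairs, 5 had an adjusted p under 0.05 in a permutation test of Pearson's r. The smallest r of the 5 in size was 0.641, and 23.8% of the member pairs and 6.55% of all pairs of 11002 genes had one at least that large, with median absolute values of 0.228 and 0.26. That cutoff was taken from the 5 pairs themselves, so the share of member pairs follows from the choice. By the medians, member pairs were not more closely related than other pairs. The count was 1 of 21 without the 2 farthest pups and 0 of 21 within either run of 8 pups. Gad1 moved with Abat (r = 0.755, adjusted p = 0.00945; Spearman's rho = 0.791, adjusted p = 0.00756), and r was 0.78 without the 2 pups farthest from the median, 0.807 in pups 26 to 33 and 0.657 in pups 35 to 42. Gad2 moved with Abat (r = 0.672, adjusted p = 0.0281; rho = 0.709, adjusted p = 0.0306), with r of 0.589 without the 2 farthest pups and of 0.696 and 0.581 within the runs. Both values of r were thus positive in each run, where no pair passed the threshold by itself.

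Gad1 and Gad2 were related over all pups (r = 0.657, adjusted p = 0.0281; rho = 0.644, adjusted p = 0.0419). Their r was 0.819 in the earlier and 0.227 in the later run of pup numbers, and 0.496 without the 2 farthest pups. It was thus smaller in the later run, but each run has few pups and the difference between runs was not tested. Slc6a11 and Abat had r = 0.641 (adjusted p = 0.0281) and rho = 0.53 (adjusted p = 0.159), with r of 0.455 without the 2 farthest pups and of 0.737 and 0.389 within the runs. Their relation thus passed the threshold for r and not for rho. All genes of a pup share 1 library, and ChR2-flfl replicate 1 and Avil-ChR2 replicate 4 stood at the low and the high end of Gad1 and Gad2 together.

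Slc32a1 did not follow the enzymes of the same neurons, with r = 0.0684 to Gad1 (rho = 0.0559) and r = -0.134 to Gad2 (rho = -0.215; adjusted permutation p between 0.685 and 0.945 for these values). Its one relation past the threshold was an inverse one with Slc12a2 (r = -0.713, adjusted p = 0.0191; rho = -0.679, adjusted p = 0.0335), with r of -0.536 without the 2 farthest pups and of -0.542 and -0.783 within the runs. The cotransporters themselves had r = -0.432 (adjusted p = 0.218; rho = -0.465, adjusted p = 0.187). Across 11001 other genes above that level, Abat ranked 11, Gad2 ranked 70 and Slc32a1 ranked 4468 in likeness to Gad1. In likeness to Gad2, Abat ranked 94 and Gad1 ranked 117, and in likeness to Abat, Gad1 ranked 129 and Gad2 ranked 289.

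The genes most like a member over the 16 pups, by r of the same deviations, were Amigo1 (0.881), Nsf (0.845) and Got1 (0.801) for Gad1, and Tollip (0.847), Acad11 (0.831) and Plekhb2 (0.831) for Gad2. For Abat they were Nsf (0.937), Sdha (0.928) and Mdh1 (0.927), so that Nsf, an ATPase of vesicle fusion, was near both Gad1 and Abat. Slc6a11 was most like Ndrg4 (0.921), Tmem38a (0.891) and Arf3 (0.886), and Slc12a5 most like Map1a (0.915), a neuronal microtubule protein, and Slc25a23 (0.893). Slc32a1 was most like Chchd10 (0.97), Abhd8 (0.962) and Gas2l1 (0.954), and Slc12a2 most like Rb1 (0.928), Ogt (0.886) and Fcho2 (0.875). The longest transcripts of the genes most like Slc32a1 had a GC content of 53.1% to 58.2% and those of the genes most like Slc12a2 one of 39.6% to 42.9%, beside 61.9% in Slc32a1 and 44.2% in Slc12a2 themselves. The genes most like Slc6a11 were at 53.1% to 54.0%, inside the range of those most like Slc32a1, and those named for Slc12a5 at 54.9% and 56.4%. Those most like Gad1 were at 49.4% to 52.4%, those most like Abat at 45.7% to 49.4% and those most like Gad2 at 42.0% to 50.1%.

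This relation to base composition was chosen for follow-up after these values had been seen. For each pup, the slope of log2 values on transcript GC content was taken over 10407 genes, in log2 units per 10% GC. It ranged from -0.152 to 0.0383 in ChR2-flfl pups (mean -0.0617 ± 0.0762, SD) and from -0.148 to 0.0188 in Avil-ChR2 pups (mean -0.0377 ± 0.0587), and did not differ between genotypes beyond that spread (exact permutation p = 0.487, n = 8 each). Over the 16 pups, Slc32a1 rose with the slope (r = 0.825, adjusted p = 0.00064; rho = 0.906, adjusted p = 0.00016), with r of 0.757 without the 2 farthest pups and of 0.753 and 0.894 within the runs. Slc12a2 went the other way (r = -0.817, adjusted p = 0.00112; rho = -0.738, adjusted p = 0.00891), with r of -0.716 without the 2 farthest pups and of -0.723 and -0.846 within the runs.

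The Slc12a5 to Slc12a2 ratio followed the same slope (r = 0.754, adjusted p = 0.0024; rho = 0.718, adjusted p = 0.00916), with r of 0.62 without the 2 farthest pups and of 0.812 and 0.832 within the runs. These p-values are adjusted over 16 relations, 8 with this slope and 8 with the slope on genomic span. Gad1 (r = -0.0186), Abat (r = -0.163), Gad2 (r = -0.262) and Slc6a11 (r = 0.188) had no relation to the GC slope past the threshold, with adjusted permutation p of 0.531 or more, and Slc12a5 had r = 0.501 (adjusted permutation p = 0.103). A relation of this kind was common: the median absolute r over 11002 genes was 0.441, 8.84% of them had one at least as large as that of Slc32a1 and 9.66% one at least as large as that of Slc12a2. Since the slope is computed from genes by their GC content, GC-rich genes rise with it on average by construction.

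**Figure D4:**
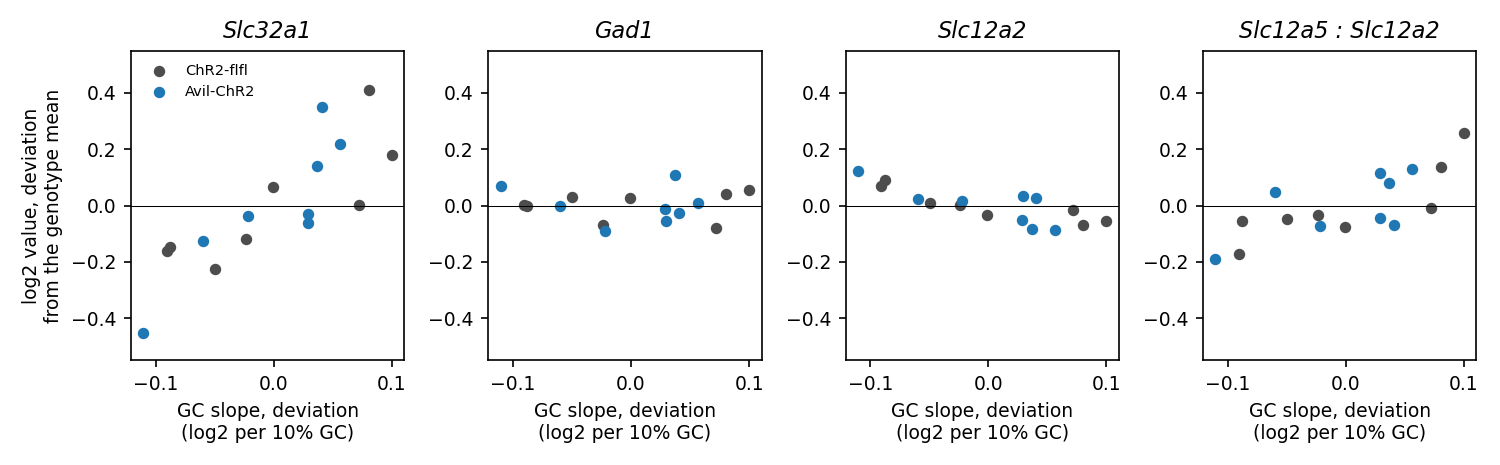
Log2 value of Slc32a1, Gad1, Slc12a2 and the Slc12a5 to Slc12a2 ratio against the pup's GC slope, both as deviations from the genotype mean, for 8 ChR2-flfl (grey) and 8 Avil-ChR2 (blue) pups on 1 common vertical scale. Slc32a1 (r = 0.825) and the ratio (r = 0.754) rise with the slope, Slc12a2 (r = -0.817) falls, and Gad1 (r = -0.0186) is flat.

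**Figure D5:**
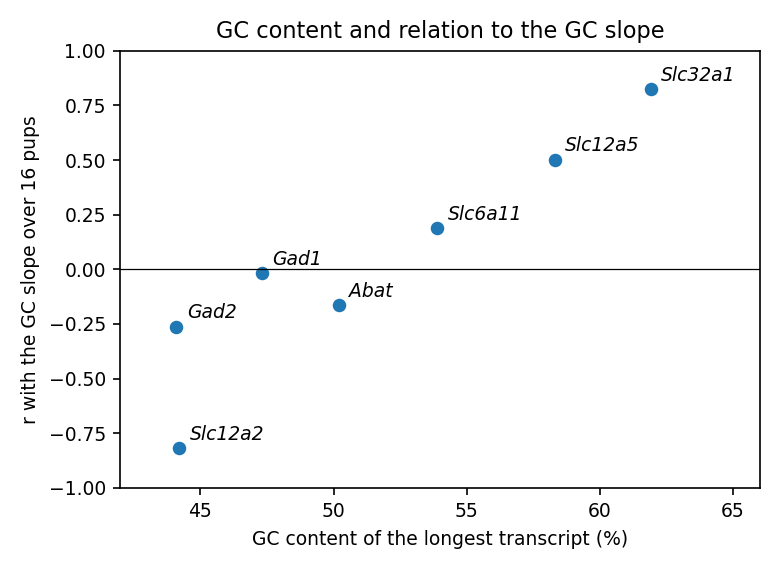
Pearson's r of each member with the pup's GC slope over 16 pups against the GC content of its longest transcript. Slc32a1 and Slc12a5, at 61.9% and 58.3% GC, have r of 0.825 and 0.501, and Slc12a2, at 44.2%, has r of -0.817, while Gad2 at 44.1% has r of -0.262.

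When the GC slope was removed, the within-genotype SD of Slc32a1 went from 0.229 to 0.134 log2 units, that of Slc12a2 from 0.0638 to 0.0381 and that of the ratio from 0.123 to 0.0842. The SD of Gad1 was 0.0573 before and 0.0594 after, and that of Abat 0.0911 and 0.0932. The r between Slc32a1 and Slc12a2 went from -0.713 to -0.119, whereas that between Gad1 and Abat went from 0.755 to 0.762 and that between Gad1 and Gad2 from 0.657 to 0.676. For Slc32a1, r with Gad1 went from 0.0684 to 0.148 and r with Gad2 from -0.134 to 0.151. The inverse r of Slc12a2 became larger in size with Gad2 (from -0.0745 to -0.52), Abat (from -0.166 to -0.527) and Gad1 (from -0.199 to -0.371). It became smaller in size with Slc12a5 (from -0.432 to -0.0458) and with Slc6a11 (from -0.228 to -0.131). When the slope on genomic span was removed instead, r of Slc12a2 was -0.157 with Gad2, 0.0737 with Abat and -0.175 with Gad1. It was then -0.437 with Slc12a5 and 0.0346 with Slc6a11. These values after removal are descriptions over 16 pups and were not tested. With the GC slope as a covariate the genotype difference was -0.02 for Slc32a1 (adjusted p = 0.975 in limma) and 0.02 for the ratio (permutation p = 0.578).

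The slope of log2 values on genomic span, which was related to the GC slope (r = -0.791 over 16 pups, a description), had r = -0.846 for Slc32a1 (adjusted p = 0.00064; rho = -0.871, adjusted p = 0.00024) and r = 0.781 for Slc12a2 (adjusted p = 0.0016; rho = 0.688, adjusted p = 0.013). Without the 2 farthest pups r was -0.846 and 0.614, and within the runs it was -0.839 and -0.765 for Slc32a1 and 0.573 and 0.876 for Slc12a2. Over the 11002 genes the median absolute r with this slope was 0.388, and 1.53% and 5.54% of them had one at least as large as those of Slc32a1 and Slc12a2. Slc32a1 spans 4990 bp, the shortest span of the members. Since this slope is computed from genes by their genomic span, genes of short span fall with it on average by construction. The ratio did not pass the threshold with it (r = -0.544, adjusted permutation p = 0.0773; rho = -0.406, adjusted permutation p = 0.277), with r of -0.439 without the 2 farthest pups and of -0.562 and -0.715 within the runs. This slope was lower on average in Avil-ChR2 pups, 0.889 ± 0.0243 against 0.919 ± 0.0344 log2 units per 10-fold span (SD, n = 8 each; exact permutation p = 0.0573), with 1 of 8 Avil-ChR2 pups above the control mean. With it as a covariate the log2 difference of Slc32a1 was -0.15 (SE 0.0639, unadjusted p = 0.0312, adjusted p = 0.887 in limma), the reverse of the value without it, and 5.42% of all genes had an unadjusted p under 0.05 in that fit. The ratio then had a log2 difference of -0.01 (permutation p = 0.844).

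Genes around the members were taken from 6 lists of the pathway, with 44 genes in all, of which all 44 were analysed. None had an adjusted p under 0.05. At an unadjusted p under 0.05, 3 were higher and 4 lower in Avil-ChR2 pups, 15.9% of the list beside 5.41% of all genes. The lists were chosen with earlier results of these data known, so the 2 shares were not tested against each other and show no enrichment. Of the 44, 22 had a positive difference, and the median log2 difference was -5.6e-05. The values named in what follows are log2 differences with adjusted p-values from limma. Some genes, markers included, are named for an unadjusted p under 0.05, a choice made on the genotype difference itself. For these, a count of pups below the control mean adds no separate support.

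Of 13 further genes of synthesis, breakdown and precursor supply, 10 had a higher mean in Avil-ChR2 pups, with a median of 0.05. Aldh9a1, an aldehyde dehydrogenase of the route from putrescine to GABA, was at 36.8 ± 1.27 against 35.2 ± 1.35 CPM (0.07, adjusted p = 0.907). Glul, the astrocytic glutamine synthetase and the most abundant of the list, was at 501 ± 25.8 against 484 ± 43.3 CPM (0.05, adjusted p = 0.954). All 4 further carriers of GABA and taurine had a positive difference and none an unadjusted p under 0.05.

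Of 7 further cation-chloride cotransporters, 2 had a positive and 5 a negative difference, and none an unadjusted p under 0.05. Of 8 kinases and partners that act on these transporters, 7 had a negative difference. Wnk1 was at 148 ± 5.73 against 156 ± 7.74 CPM (-0.07, adjusted p = 0.882) and Wnk3 at 56.5 ± 2.63 against 59.8 ± 3.81 CPM (-0.08, adjusted p = 0.911), each below the control mean in 7 of 8 Avil-ChR2 pups. These with-no-lysine kinases are known to favour chloride import over export, but chloride itself was not measured. Neto2, a partner of KCC2 and the most abundant of this list, was at 229 ± 12.1 against 233 ± 12.8 CPM (-0.03, adjusted p = 0.981).

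Among 7 genes of other chloride and bicarbonate transport, the chloride channel gene Clcn2 was at 48.3 ± 1.39 against 45.7 ± 3.1 CPM (0.08, adjusted p = 0.892), and Clcn3, the most abundant, at 261 ± 4.86 against 261.5 ± 12.7 CPM. Among 5 genes of the GABA-B receptor, the auxiliary subunits Kctd12, at 120.6 ± 3.95 against 128.2 ± 9.42 CPM (-0.09, adjusted p = 0.908), and Kctd16, at 11.2 ± 0.895 against 12.6 ± 1.64 CPM (-0.16, adjusted p = 0.892), were lower in mean. Kctd12 was below the control mean in 8 of 8 Avil-ChR2 pups. The receptor subunit gene Gabbr1 was at 640 ± 13.04 against 635 ± 11.8 CPM (0.01, adjusted p = 0.985). All CPM values of these lists are means ± SD with n = 8 per genotype.

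Markers of the cells that could carry the members were read beside them. The summed CPM of 15 genes of the cortical interneuron lineage, 14 of them analysed, was 627 to 735 in ChR2-flfl and 606 to 702 in Avil-ChR2 pups, and of these Erbb4, the neuregulin receptor of interneurons, was at 87.0 ± 2.49 against 98.7 ± 9.02 CPM (-0.18, unadjusted p = 0.000656, adjusted p = 0.691 in limma), below the control mean in 8 of 8 Avil-ChR2 pups. Of the 14 lineage genes analysed, 5 had a positive and 9 a negative difference (median log2 difference -0.0328). Satb1 was the largest part of their sum, at 273.6 ± 22.6 CPM in ChR2-flfl and 264.7 ± 35.8 CPM in Avil-ChR2 pups on average. Of 11 interneuron subtype markers, 7 had a positive and 4 a negative difference (median 0.0454). Among them Reln was lower (-0.14, adjusted p = 0.908 in limma) and Crhbp higher (0.18, adjusted p = 0.892 in limma) at an unadjusted p under 0.05. Striatal projection neurons are GABAergic too, and the sum of their 9 markers, 8 of them analysed, was 114 to 141 CPM in ChR2-flfl and 104 to 153 CPM in Avil-ChR2 pups; 6 thalamic markers, 5 of them analysed, summed to 94.1 to 111 and 95.7 to 106 CPM, of which Slc17a6, also counted among the cortical excitatory markers, made up 55.96 ± 5.04 and 54.98 ± 3.01 CPM on average. The 8 astrocyte markers, of the cells that hold Slc6a11, summed to 1517 to 1917 and 1728 to 1975 CPM. The 9 markers of cortical excitatory neurons summed to 1277 to 1405 and 1344 to 1444 CPM, which fits the labelled tissue. Of these, 4 had a positive and 5 a negative difference (median log2 difference -0.000961). Slc17a7 was higher at an unadjusted p under 0.05 (0.11, adjusted p = 0.884 in limma). The choroid plexus, where Slc12a2 is also abundant, was nearly absent, with a sum of 2.99 to 5.92 and 3.54 to 7.25 CPM; its Ttr reached at most 1.19 CPM, and Folr1, Kcnj13 and Otx2 did not pass the filter. The ranges of all these sums overlapped between genotypes, and their part in the members' values was not tested.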

How the data were processed

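RNA of 16 cortices was sequenced by the authors with a TruSeq stranded mRNA kit, and reads were aligned with SeqMan NGen 17 to mm10 (GRCm38), displayed in ArrayStar 17 and normalised by trimmed mean of M values with edgeR. The deposited table gives these normalised counts (CPM) per pup, written with decimal commas; 100% of values up to 20000 reads were whole multiples of 1 read within 0.05, which gave 30549132 to 48711147 reads per pup. The second supplementary file gave only the sexes used as an alternative. Columns of the authors' comparisons were not used.

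CPM were taken as log2 with a floor of -5; a gene needed at least 12 of 16 values above it (21183 of 36930 entries). Genotypes were compared in limma 3.58.1 (R 4.3.3) with a trended variance and Benjamini-Hochberg adjustment over all genes, tested on simulated data. Single genes and the ratio were also compared by exact two-sided permutation over all 12870 divisions of the pups; its interval holds the shifts with p of at least 0.05. Correlations used 100000 permutations. Pups are biological replicates by the labels. Exon lengths and GC content came from GENCODE M21, with a GC value for 94.6% of the genes used, and promoters from RefSeq. Named genes were the members, pathway genes with an unadjusted p under 0.05 or the most abundant of their list, the 3 genes most like each member, and markers by the same rule; a few genes that the rule names are not reported here. Members and lists were chosen with earlier results of these data known. Alternatives concerned filter, pseudocount, missing values, normalization, sex, run, slopes, replicate block and single pups. Python 3.11.15 was used.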

Additional observations from a re-analysis of the deposited data

Results flagged for a closer look

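The genotype difference of Abat differed between the sexes when the sexes of the second supplementary file were used, by 0.163 on the log2 scale (male minus female, unadjusted p = 0.0478, adjusted p = 0.799 in limma over all genes). Male ChR2-flfl pups averaged 153.8 ± 12.9 CPM and the other 3 groups 162.4 to 167.3 CPM (n = 4 pups each). In 16 groups of 8 pups (7 members and the ratio, in each genotype), no pup stood apart from the others by Dixon's criterion.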

How the results depend on the processing

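Over 14 other settings and 16 fits that left out a pup, 210 log2 differences of members were recomputed; 202 kept their direction, and none had an adjusted p under 0.05 (lowest 0.766). In pups 35 to 42 alone the difference was -0.0404 for Slc32a1 and -0.00816 for Slc12a5, and in pups 26 to 33 alone -0.0261 for Slc6a11. With the slope on genomic span as a covariate it was -0.149 for Slc32a1, -0.00388 for Slc6a11, 0.0137 for Slc12a2 and -0.0112 for the ratio, and with the slope on GC content, added after the data were seen, -0.0172 for Slc32a1. Leaving out single pups gave -0.000757 (without Avil-ChR2 replicate 1) to 0.114 for Slc32a1, 0.0186 to 0.0467 for Gad1 and 0.0167 to 0.0587 for Gad2 (both lowest without Avil-ChR2 replicate 4), 0.0023 to 0.0261 for Slc6a11 and 0.00518 to 0.0533 for Abat (both lowest without ChR2-flfl replicate 1), -0.0545 to -0.024 for Slc12a2, and 0.00443 (without ChR2-flfl replicate 3) to 0.0492 for Slc12a5 and 0.0327 (without ChR2-flfl replicate 4) to 0.0942 (exact permutation p = 0.102) for the ratio, both highest without ChR2-flfl replicate 5. The cause of these reversals was not tested. The count of all genes with an adjusted p under 0.05 was 2, and 1 under median centring, the replicate block, either run alone and the span slope; it was 1 to 2 with a pup left out and 3 with the run as a covariate. Same-numbered pups had correlated deviations above 0.1 in 3 of 8 pairs, with r from -0.486 to 0.434. Differently numbered pups were not compared, so whether the numbers pair the pups was not settled. The replicate block gave 0.0574 for the ratio (permutation p = 0.406) and changed no call of a member. The number of member pairs with an adjusted p under 0.05 was 5, and 0 within either run of 8 pups and 1 without the 2 farthest pups. Tests of recovered counts with 2 other tools were not run. Counting error of the members was at most 2.49%, in each case under the spread between pups.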
